A study of Mus musculus with 6 samples.

Results

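Neutrophil transcripts were followed in injured mouse muscle through the genes S100a9, Csf3r and Lcn2. These are the rows of the count table whose Ensembl identifiers map to 4 listed neutrophil symbols, and they make up 3 of 16289 genes. The fourth symbol, S100a8, was not analysed here. RNA-seq had been run on the tibialis anterior, the shin muscle that lifts the foot, from wildtype C57BL/6J males aged 12 weeks. All 6 mice had received glycerol in that muscle 14 days earlier, an injury that destroys fibres and is followed by regeneration with fat deposits. In the glycerol group, 3 mice had a control treatment in addition. The glycerol+melatonin group held 3 mice given melatonin, a hormone of the pineal gland. What the control was, and when and how melatonin was given, is not given in the sources used. Uninjured muscle was not analysed here, so the levels below have no such baseline.

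Neutrophils are short-lived white blood cells made in the bone marrow. They are among the earliest cells to enter damaged muscle and are normally cleared before regeneration is complete. S100a9 encodes a calcium-binding protein that, with its partner S100a8, forms calprotectin, a very abundant protein of the neutrophil cytosol. Csf3r encodes the receptor for granulocyte colony-stimulating factor, which drives neutrophil formation and release. Lcn2 encodes lipocalin-2, a protein of the specific granules that binds bacterial iron carriers. Other cells, among them macrophages, fat cells and epithelia, can switch on Lcn2 during inflammation.

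On the mouse build GRCm38, S100a9 (ENSMUSG00000056071) lies on chromosome 3 from 90692632 to 90695721 on the minus strand. Csf3r (ENSMUSG00000028859) lies on chromosome 4 from 126024550 to 126044440 on the plus strand, and Lcn2 (ENSMUSG00000026822) on chromosome 2 from 32384633 to 32388252 on the minus strand. All are protein-coding, and none shares exon bases with another gene in GENCODE M21. The promoter of S100a9 is shown because this gene spanned the widest range between libraries. The 250 bases before its RefSeq start, chr3:90695722-90695971 (GRCm38.p6, minus strand), read as follows, with matches to the C/EBP motif in capitals.
S100a9: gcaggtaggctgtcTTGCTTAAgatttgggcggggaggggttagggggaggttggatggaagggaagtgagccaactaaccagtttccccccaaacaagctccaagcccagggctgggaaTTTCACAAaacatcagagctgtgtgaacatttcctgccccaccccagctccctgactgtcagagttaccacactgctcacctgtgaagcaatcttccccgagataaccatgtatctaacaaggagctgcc
C/EBP proteins are transcription factors of the granulocyte lineage, and the motif searched was TTNNGNAA on both strands. The matches begin at positions -236 and -130 from the start, both on the other strand. The motif is common: 40.7% of 32851 RefSeq promoter windows of 300 bases hold it, as does the window of Lcn2 but not that of Csf3r. PU.1, a myeloid factor, was searched as GAGGAA, which matched in the windows of Csf3r and Lcn2 and in 28.3% of all windows. Searches for NF-kB (a narrow and a partly overlapping wider form of its motif, in 1.63% and 4.16% of windows) and STAT (TTCNNNGAA, 8.3%) gave no match in the 3 windows. TATAAA was found in the S100a9 window at its start and in 13.6% of all windows.

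The 6 libraries held 39310361 to 48879045 counts. Markers of skeletal muscle dominated every library, with 10 such genes summing to 84650 to 145500 CPM (a count per 1000000 of the library, scaled by TMM factors). The library of glycerol+melatonin replicate 3 had the lowest sum of muscle markers and was the highest of the 6 for 4011 genes (24.6% of the table). The labels' tissue was used, although their extraction text names a back muscle. Tbx4 and Pitx1, transcription factors of the hind limb, had 223 to 324 and 31 to 150 counts per library.

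S100a9 was nearly undetected in glycerol muscle and present in all melatonin-treated mice. Its raw counts were 2, 0 and 4 in glycerol replicates 1 to 3 and 14, 89 and 340 in glycerol+melatonin replicates 1 to 3. The groups did not overlap, and replicate 3 held 76.7% of the S100a9 counts of its group. In CPM the melatonin-treated mice were at 0.320, 1.64 and 7.23. The exact Poisson 95% intervals of these values, 0.175 to 0.537, 1.32 to 2.02 and 6.49 to 8.05, did not overlap one another. For the glycerol library with 0 counts, 3 counts would be 0.0614 CPM of the library total. Such intervals and floors cover counting error only, since reads without molecular identifiers are not independent molecules. Replicate 3 had 22.6 times the S100a9 level of replicate 1.

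Csf3r, the receptor gene, was detected in every mouse. Raw counts were 144, 130 and 140 in the glycerol mice, against 169, 301 and 388 under melatonin. The glycerol mice were tightly grouped at 3.56, 2.99 and 3.43 CPM, a coefficient of variation of 8.89%, while the treated mice spread over 3.86, 5.55 and 8.25 CPM (37.6%). The groups did not overlap, but only just. Glycerol+melatonin replicate 1 (95% interval 3.30 to 4.49 CPM) lay within counting error of glycerol replicate 1 (3.00 to 4.19 CPM), and its 2 fellow mice lay above all others.

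Lcn2 stood out in a single mouse. Raw counts were 25, 44 and 26 in the glycerol mice, against 29, 51 and 192 under melatonin, which is 0.618, 1.01 and 0.637 CPM against 0.662, 0.941 and 4.09 CPM. The groups overlapped, since glycerol replicate 2 lay above glycerol+melatonin replicates 1 and 2. Replicate 3 had 4.34 times the level of replicate 2 and 70.6% of the Lcn2 counts of its group. The order of the 3 treated mice was the same for each of the genes.

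**Figure D1:**
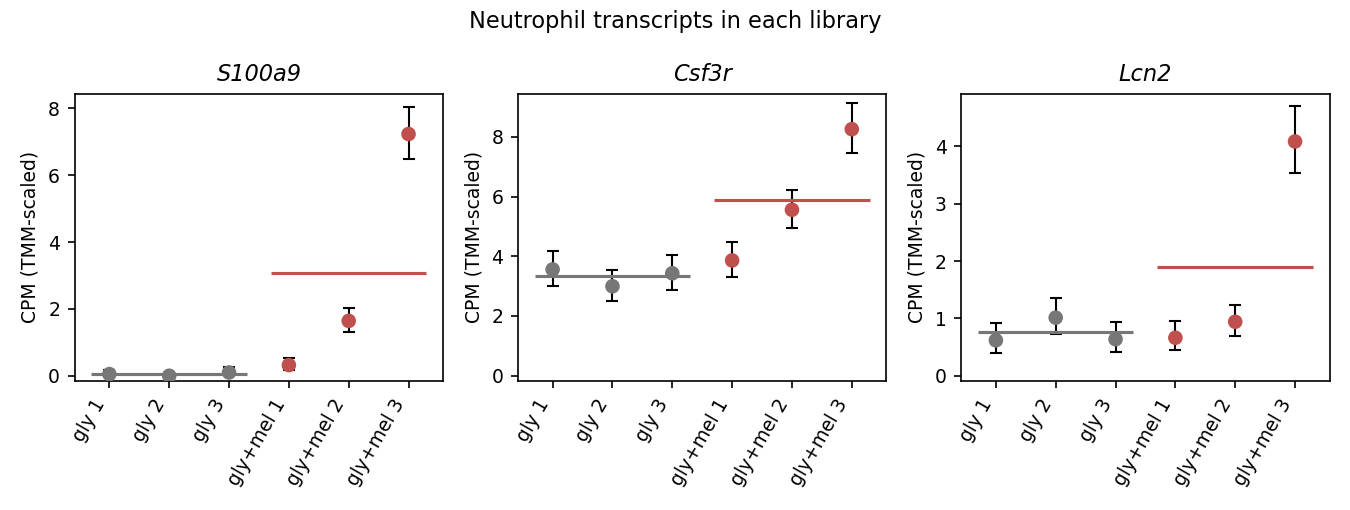
TMM-scaled CPM of S100a9, Csf3r and Lcn2 in each library (points) with exact Poisson 95% intervals of the count (bars, counting error only) and group means (horizontal lines), for 3 glycerol (gly) and 3 glycerol+melatonin (gly+mel) mice. S100a9 runs from 0 to 7.23 CPM, and glycerol+melatonin replicate 3 is the highest library in each panel.

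By edgeR, none of the 3 genes passed against the spread between mice. S100a9 averaged 0.0491 ± 0.0490 CPM in the glycerol mice and 3.07 ± 3.67 CPM under melatonin (mean ± SD, n = 3 per group). Its log2 fold change was 5.91 ± 1.3 (SE), and its adjusted p was 0.132 (edgeR quasi-likelihood, Benjamini-Hochberg over 16259 genes). As the glycerol counts were so low, this size depended on the constant added to the counts, and it was 5.07 with a prior count of 2. Csf3r went from 3.33 ± 0.296 to 5.89 ± 2.22 CPM (log2 0.82 ± 0.29, edgeR adjusted p = 0.192). Lcn2 averaged 0.756 ± 0.223 and 1.90 ± 1.90 CPM (log2 1.32 ± 0.66, edgeR adjusted p = 0.306).

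Thus 0 of 3 genes passed by edgeR at an adjusted p under 0.05, where 0.0738% of all genes tested did, and 0.0185% as higher with melatonin. At an unadjusted p under 0.05, S100a9 and Csf3r counted as higher, 2 of 3, beside 10.1% of all genes (19.5% in either direction). DESeq2 called 1 of the 3, S100a9 (5.96 ± 1.54, DESeq2 adjusted p = 0.00736), beside 2.13% of genes called higher and 4.85% called in either direction by that tool. Limma-voom called 0 with and 0 without sample weights, and 2 of the 3 had an unadjusted p under 0.05 in each. The groups were also separate, with every treated mouse above every glycerol mouse, for 13.6% of all genes. S100a9 passed the filter on low counts only through the melatonin-treated group, where it was high. In whole muscle, a change in the number of neutrophils and a change in RNA per cell cannot be told apart.

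The values rested on glycerol+melatonin replicate 3 to different degrees. Without it, S100a9 was at 4.29 ± 0.99, with 2 treated mice still above the glycerol mice (edgeR adjusted p = 0.223). Csf3r was at 0.51 ± 0.24 (edgeR adjusted p = 0.363). Lcn2 was at 0.09 ± 0.39 (edgeR adjusted p = 0.928), so the higher Lcn2 mean was that of 1 mouse. Leaving out glycerol+melatonin replicate 1 instead gave 6.44 ± 0.89 for S100a9 (edgeR adjusted p = 0.0547) and 1.05 ± 0.25 for Csf3r (edgeR adjusted p = 0.131). Leaving out glycerol replicate 3 gave 6.85 ± 1.80 for S100a9 and leaving out glycerol replicate 2 gave 5.33 ± 1.44. For Lcn2, the values without glycerol+melatonin replicates 1 and 2 were 1.72 ± 0.59 and 1.64 ± 0.67.

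**Figure D2:**
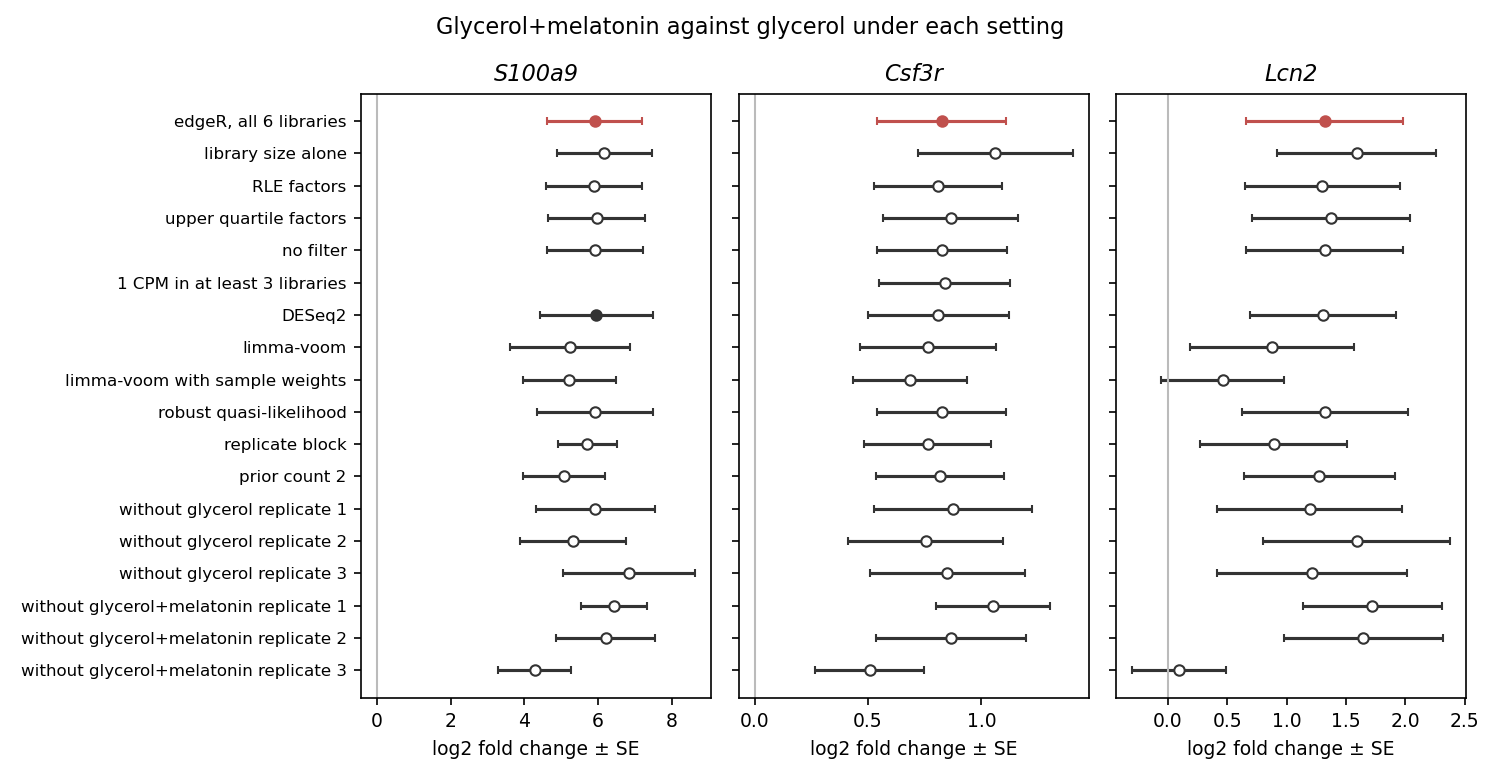
Log2 fold change with its standard error of S100a9, Csf3r and Lcn2, glycerol+melatonin minus glycerol, under each statistical setting and with each library left out (rows); filled black points passed at an adjusted p under 0.05 and the value with all 6 libraries is in red. Every value lies above 0, S100a9 passed under DESeq2 alone, and Lcn2 drops to 0.09 without glycerol+melatonin replicate 3; S100a9 and Lcn2 have no value under the 1 CPM filter.

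Divided by the length of the longest transcript, the genes can be compared with each other. In the glycerol mice Csf3r was the highest, at 0.860 to 1.02 CPM per kilobase, followed by Lcn2 at 0.449 to 0.737 and S100a9 at 0 to 0.189. In glycerol+melatonin replicate 1 Csf3r still led, with 1.11 CPM per kilobase against 0.616 for S100a9 and 0.482 for Lcn2. In the other treated mice S100a9 led, with 3.17 CPM per kilobase in replicate 2 and 13.9 in replicate 3. Csf3r followed in replicate 2 with 1.60, while Lcn2 (2.97) and Csf3r (2.37) were close in replicate 3. For scale, Lyz2, a lysozyme gene that macrophages share with neutrophils, was at 179.5 to 311 CPM per kilobase in the 6 libraries.

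Other genes of neutrophil granules and secretions gave a mixed picture apart from Ngp. Of 23 listed genes 14 were not analysed here, among them those of the primary granule enzymes Mpo, Elane, Prtn3 and Ctsg, and 8 were tested. By edgeR 0 passed in either direction and 0 had an unadjusted p under 0.05. Of the 8 tested, 6 were above 0 and 2 below, with a median log2 fold change of 0.28 beside 0.02 for all genes. Without glycerol+melatonin replicate 3 that median was 0.14, and over the 6 libraries left out in turn it ran from -0.03 to 0.54. Ngp, which encodes a granule protein made by maturing neutrophils in the marrow, was singled out after its values were seen. Its counts were 0, 0 and 8 in the glycerol mice, against 0, 4 and 473 under melatonin. Thus 97.5% of all Ngp counts came from glycerol+melatonin replicate 3, where it stood at 10.1 CPM, and the gene was not tested because too few libraries reached the minimum count. Mmp8, the neutrophil collagenase, had 28, 9 and 14 counts in the glycerol mice, against 22, 24 and 70 under melatonin, again highest in replicate 3 (0.97 ± 0.61, edgeR adjusted p = 0.403). Lyz2 was at -0.11 ± 0.25 and Hp, which encodes haptoglobin, at 0.25 ± 0.42, both with overlapping groups.

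**Figure D3:**
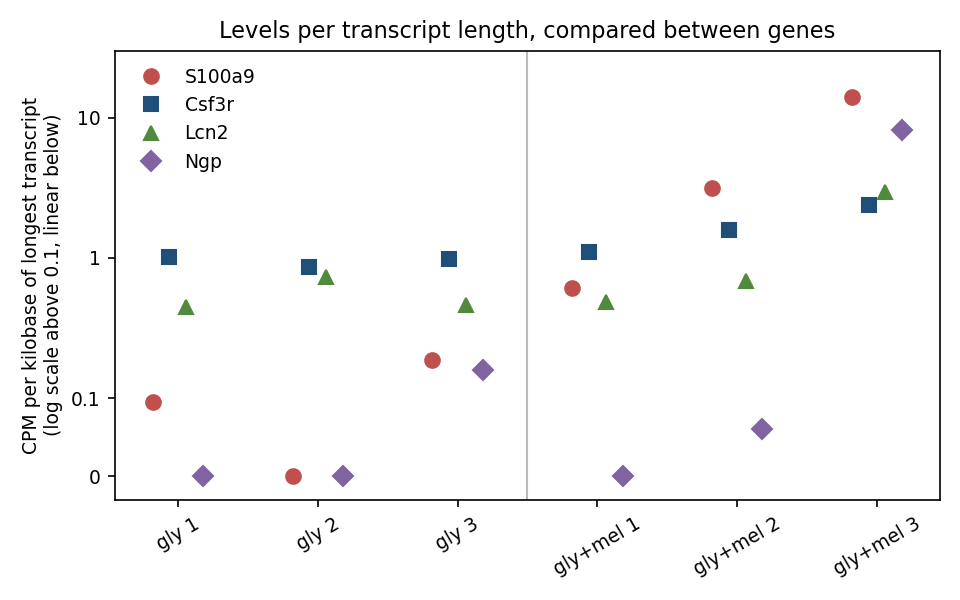
TMM-scaled CPM per kilobase of the longest transcript for S100a9, Csf3r, Lcn2 and Ngp in each of the 6 libraries (symbols offset sideways for legibility), on an axis that is logarithmic above 0.1 and linear below. Csf3r is the highest symbol in the glycerol mice, S100a9 in glycerol+melatonin replicates 2 and 3, and Ngp is at 0.160 or less except in glycerol+melatonin replicate 3, at 8.23.

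Genes that were far higher in 1 library than in any other were counted over the whole table. The rule was chosen after S100a9, Lcn2 and Ngp had been seen to be high in replicate 3, so the counts describe that observation and add no support to it. Genes with at least 50 counts in a library and at least 4 times the CPM of every other library numbered 4 of 16289 in glycerol+melatonin replicate 3. They were Ngp (51.4 times the next library), S100a9 (4.40), the gene model Gm49388 (4.37) and Lcn2 (4.03), so 3 of the 4 were in the neutrophil lists. In the other 5 libraries 0 to 5 genes met the rule and 0 were neutrophil genes. At 3 times the next library, 10 genes met it in replicate 3, of which 3 were neutrophil genes. At 2 times, 55 did, of which 4 were, Mmp8 being added.

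Surface receptors of neutrophils, many of which macrophages also carry, lay on both sides of no change. Of 25 listed, 9 were not analysed here, among them the defining marker Ly6g and the chemokine receptors Cxcr1 and Cxcr2. The 16 tested divided into 8 above and 8 below 0, with a median of -0.05 and 0 passing by edgeR, DESeq2 or limma-voom. Scaled by library size alone, which raised all genes by a median of 0.21, the split was 11 above and 5 below with a median of 0.18, and without glycerol+melatonin replicate 3 it was 6 and 10 (-0.20). At an unadjusted p under 0.05 there was 1 higher, the Fc receptor gene Fcgr4 (0.51 ± 0.22, edgeR adjusted p = 0.248), and 1 lower, the selectin ligand gene Selplg (-0.63 ± 0.23, edgeR adjusted p = 0.198). Over the whole table, 10.1% of genes were higher and 9.39% lower by that measure. The most abundant per length were Fcgr3 (-0.09 ± 0.30), Itgb2, which encodes the shared chain of leukocyte integrins (-0.32 ± 0.17), and Selplg.

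Of the 6 oxidase genes, whose products make the superoxide of the neutrophil burst and that of macrophages, 5 were above 0 (median 0.27). By edgeR 0 passed, with 1 higher and 1 lower at an unadjusted p under 0.05, beside 10.1% and 9.39% of all genes. DESeq2 called 0 in the granule and oxidase lists. The subunits of the oxidase membrane core differed in direction. Cyba was at 0.62 ± 0.20 and Cybb at -0.46 ± 0.18 (edgeR adjusted p = 0.185 and 0.223), each without overlap between groups. Cyba has a longest transcript under 1000 bases, a class of genes with a median of 0.42 over the whole table. Cybb is in the class of 3000 bases or more, with a median of -0.09. The part of transcript length in their difference was not tested. Rac2 (0.10 ± 0.17) and Ncf1 (0.03 ± 0.16) were near 0.

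The signals that draw neutrophils in or raise their number were partly measured, with 7 of 16 genes tested and 0 passing by edgeR. Not analysed here were, among others, Csf3, which encodes the ligand of Csf3r, and the chemokine genes Cxcl2, Cxcl3 and Cxcl5. Cxcl1, a ligand of Cxcr2, had 10, 63 and 36 counts in the glycerol mice, against 69, 86 and 89 under melatonin (0.96 ± 0.51, edgeR adjusted p = 0.332). Cxcl12, which holds neutrophils in the marrow, was at 0.34 ± 0.17. Il1b, which encodes the inflammatory cytokine interleukin-1 beta, was at 0.87 ± 0.47 (edgeR adjusted p = 0.34). The complement gene C3, source of a fragment that activates neutrophils, was lower at an unadjusted p under 0.05, from 42.0 ± 6.50 to 24.6 ± 4.08 CPM (-0.77 ± 0.18, edgeR adjusted p = 0.136). Csf1, the macrophage growth factor gene, was at 0.08 ± 0.18.

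Taking the neutrophil genes of all these roles with the listed transcripts, 41 of 74 symbols had values and 40 were tested. Above 0 were 27 and below 0 were 13, with a median of 0.22. At an unadjusted p under 0.05, 4 were higher and 3 lower, beside 10.1% and 9.39% of all genes. Treated mice were all above the glycerol mice for 6 of the 41 and all below for 4, beside 13.6% and 12.5% of all genes. These shares were near those of the whole table. Of the 40, 0 passed by edgeR and 0 by limma-voom. DESeq2, which tested 41, called S100a9 and C3 (-0.79 ± 0.22, DESeq2 adjusted p = 0.0139). That tool called 4.85% of all genes in either direction, so this share too was near that of the table. Without glycerol+melatonin replicate 3, 24 were above and 16 below 0, with a median of 0.06. Scaled by library size alone, 33 were above and 7 below. The highest library was glycerol+melatonin replicate 3 for 18 of the 41 (43.9%), where it was for 24.6% of the table.

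**Figure D4:**
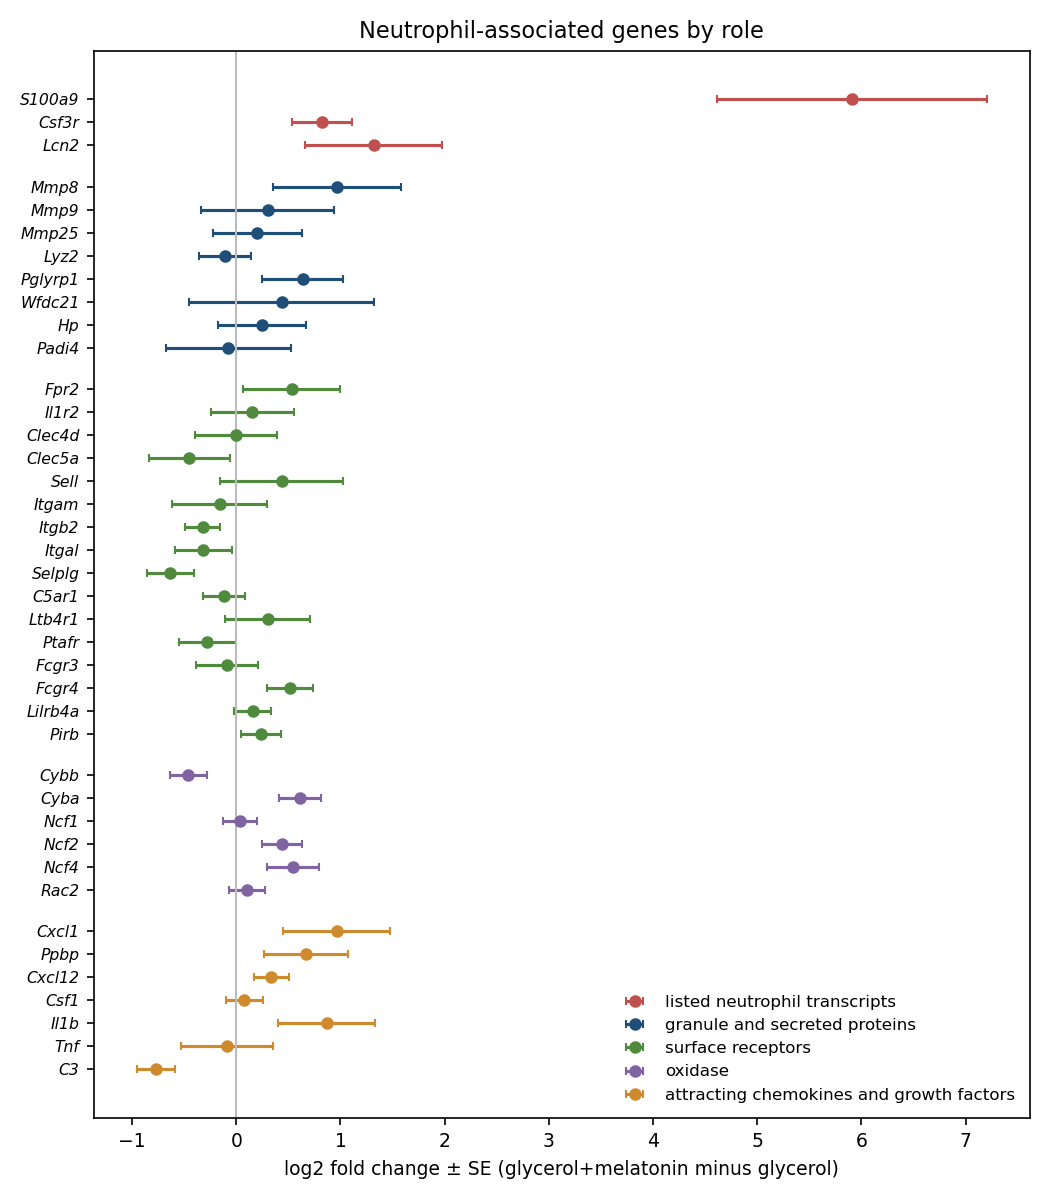
Log2 fold change with its standard error (edgeR, glycerol+melatonin minus glycerol, 3 mice per group) of the listed neutrophil transcripts and of tested genes of neutrophil granules, surface receptors, oxidase and attracting signals. S100a9 lies at 5.91, far to the right of the others, surface receptors fall on both sides of 0, and none of the genes drawn passed at an adjusted p under 0.05.

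Partners of the 3 genes were described next. All 8 genes for receptors and partners of calprotectin were tested, and 0 passed by edgeR. Ager, which encodes the receptor RAGE, was at 0.63 ± 0.29 with separate groups (edgeR adjusted p = 0.27), and Tlr4, which encodes the endotoxin receptor, at 0.24 ± 0.27. The receptor adaptor gene Myd88 was at 0.47 ± 0.19 and the scavenger receptor gene Cd36, abundant in muscle and fat, at -0.54 ± 0.18, the genes of that list with an unadjusted p under 0.05. Over the whole table, 10.1% of genes were higher and 9.39% lower at that p.

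Of 15 genes for Csf3r signalling 13 were tested, 6 above and 7 below 0 (8 and 5 when scaled by library size alone), and 0 passed by edgeR, DESeq2 or limma-voom. The feedback inhibitor gene Socs3 was higher at an unadjusted p under 0.05, from 9.79 ± 0.889 to 13.9 ± 1.51 CPM (0.51 ± 0.17, edgeR adjusted p = 0.185). The kinase genes Jak1 (-0.37 ± 0.15) and Jak2 (-0.51 ± 0.17) and the transcription factor gene Stat5b (-0.54 ± 0.17) were lower by the same measure, all of them expressed widely outside blood cells. These counts, 1 higher and 3 lower, stand beside 10.1% and 9.39% of all genes, and became 2 higher and 0 lower when scaled by library size alone. Jak1, Jak2 and Stat5b have longest transcripts of 3000 bases or more, a class with a median of -0.09 over the whole table. The part of transcript length in their values was not tested. The myeloid factor Spi1, which encodes PU.1, was at 0.35 ± 0.21 and the C/EBP gene Cebpb at 0.30 ± 0.24.

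Among inducers, receptors and iron genes linked to Lcn2, 8 of 11 were tested and 0 passed by edgeR. Above 0 were 5 and below 0 were 3, with a median of 0.03 beside 0.02 for all genes. Nfkbiz, which encodes a nuclear cofactor that NF-kB needs to switch on Lcn2, was at 6.52 ± 0.634 and 9.81 ± 1.90 CPM without overlap (0.59 ± 0.20, edgeR adjusted p = 0.187). Groups were separate in that direction for 13.6% of all genes. The genes of NF-kB subunits, Nfkb1 (-0.08 ± 0.15) and Rela (0.03 ± 0.16), were near 0 with overlapping groups. Slc22a17, the gene of a lipocalin-2 receptor, was at 0.40 ± 0.24. The iron exporter gene Slc40a1 was lower at an unadjusted p under 0.05 (-0.77 ± 0.30, edgeR adjusted p = 0.215). By that measure 1 gene of the list, Nfkbiz, was higher and 1 lower, beside 10.1% and 9.39% of all genes.

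S100a9 belongs to a family of small calcium-binding proteins, of which 9 other genes were tested. Above 0 were 8 of the 9, with a median of 0.56, and 0 passed by edgeR. DESeq2 called 1, S100a6 (0.79 ± 0.26, DESeq2 adjusted p = 0.0446), beside 2.13% of all genes called higher by that tool. At an unadjusted p under 0.05, 5 of the 9 were higher, S100a6 (0.80 ± 0.23), S100a4 (0.81 ± 0.27), S100a10 (0.63 ± 0.22), S100a7a (1.14 ± 0.39) and S100a13 (0.56 ± 0.20), with edgeR adjusted p from 0.164 to 0.203, beside 10.1% of all genes. Without glycerol+melatonin replicate 3 the count was 2 of the 9. Unlike S100a9, most of these are made by many cell types. The glycerol mice had 35.5, 39.8 and 61.0 CPM per kilobase of S100a6 and the treated mice 64.8, 90.2 and 83.2. Of the 9 genes, 6 peaked in glycerol+melatonin replicate 3 (66.7%, beside 24.6% of the table), among them S100a11, at 214.4 CPM against 90.5 to 137.8 CPM in the other mice. S100b, made by Schwann cells, was at -0.62 ± 0.30. Transcript length moved with this family: 6 of the 9 genes had a longest transcript under 1000 bases, and all 1421 tested genes of such length had a median of 0.42, with 28.4% higher at an unadjusted p under 0.05. S100a9 itself has 519 bases. The part of transcript length in these results was not tested.

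Markers of other cells were summed in the same way. Summed over the 3 genes, the neutrophil transcripts were at 4.01 to 4.22 CPM in the glycerol mice, against 4.84, 8.14 and 19.6 CPM in treated replicates 1, 2 and 3. Red blood cell genes (7 with values, led by the globins) summed to 216.5 to 453.1 CPM in glycerol and to 406, 284.3 and 138.1 CPM in treated replicates 1, 2 and 3. The mouse with the most neutrophil transcripts thus had the fewest globin transcripts. Without it, the median of the 7 genes went from -0.19 to 0.16. Macrophage markers (18 genes) summed to 841.8 to 1193 CPM in the glycerol mice and 841.9 to 1029 CPM under melatonin, with 6 above and 12 below 0 and 0 passing by edgeR (3 lower at an unadjusted p under 0.05, beside 9.39% of all genes). Scaled by library size alone, 8 were above and 10 below, with 0 lower at that p. DESeq2 called 1 of the macrophage markers as lower, the scavenger receptor gene Cd163, at -0.86 ± 0.28 (DESeq2 adjusted p = 0.0454). Of all genes it called 4.85% in either direction, with 2.13% called higher and the rest lower. Monocyte markers (10 genes) summed to 497.8 to 698.1 and 579.1 to 687.8 CPM, and platelet markers (5 genes) to 12.3 to 19.9 and 13.4 to 18.9 CPM, the groups overlapping in each case. Ly6c1, Nr4a1 and Ace made up most of the monocyte sum, and Pf4 was the largest part of the platelet sum. Of the platelet markers 3 were above 0 and 2 below, with a median of 0.37. The 2 below 0 were Gp1ba (-0.43 ± 0.31) and Pf4 (-0.25 ± 0.33). Gp1bb was at 0.54 to 0.85 CPM in the glycerol mice and 1.2 to 2.1 CPM under melatonin (1.22 ± 0.33, edgeR adjusted p = 0.15). It was the 1 platelet marker of 5 that was higher at an unadjusted p under 0.05, beside 10.1% of all genes. Among the monocyte markers 5 were above and 5 below 0. For these edgeR passed 0, with 1 higher and 2 lower at an unadjusted p under 0.05, beside 10.1% and 9.39% of all genes. The lower ones were F13a1 (-0.54 ± 0.19) and Ace (-0.46 ± 0.17), with edgeR adjusted p of 0.197 and 0.206. DESeq2 called 1 higher, the membrane protein gene Ms4a4c (1.19 ± 0.36, DESeq2 adjusted p = 0.0305), at 0.967 to 2.11 CPM in the glycerol mice and 2.87 to 3.31 CPM under melatonin. That tool called 2.13% of all genes higher. Of the skin markers, which could come with S100a9 from epithelium, Krt5 and Krt14 were not analysed here, and the 4 genes with values summed to 15.3 to 25.6 CPM in the glycerol mice and 21.0 to 23.9 CPM under melatonin. Trp63 was most of that sum, at 13.8 to 22.9 CPM over the 6 libraries (0.04 ± 0.20). Krt10 was at 1.22 to 1.79 CPM in the glycerol mice and 1.96 to 2.81 CPM under melatonin (0.58 ± 0.27, edgeR adjusted p = 0.27). Sprr1a was at -0.24 ± 0.64 and was highest in glycerol replicate 3. Dsp, which was not tested, had 10, 0 and 80 counts in glycerol replicates 1 to 3, against 6, 6 and 11 under melatonin. Lymphocyte markers (18 genes) were lowest in glycerol+melatonin replicate 3, at 60.1 CPM against 69.3 to 114.8 CPM in the other mice.

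**Figure D5:**
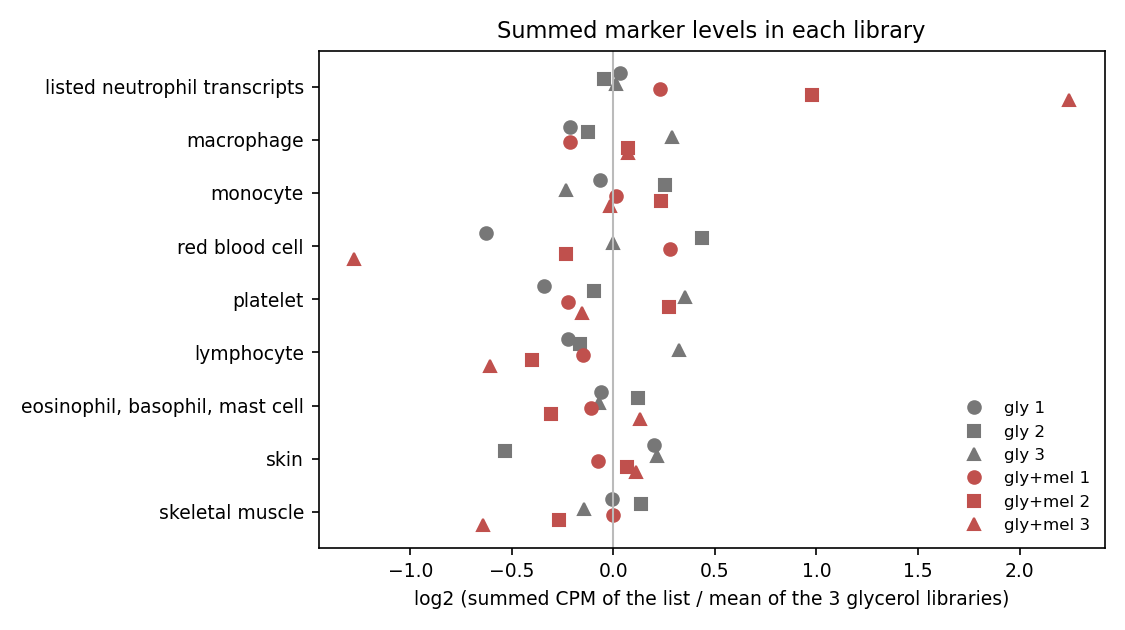
Summed TMM-scaled CPM of each marker list in each library, as log2 of its ratio to the mean of the 3 glycerol libraries (grey, glycerol; red, glycerol+melatonin; circle, square and triangle for replicates 1, 2 and 3). The listed neutrophil transcripts run up to 19.6 CPM in glycerol+melatonin replicate 3, which is also the lowest library for red blood cell (138.1 CPM), lymphocyte and skeletal muscle genes.

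Across the 6 libraries, S100a9 and Csf3r had a Pearson correlation of log2 CPM of 0.98, which was 0.97 without glycerol+melatonin replicate 3. Lcn2 was at 0.75 with S100a9 and 0.83 with Csf3r, and at 0.12 and 0.19 without that mouse. The libraries share treatment and depth, and these values are descriptions over 6 points. Among 13291 other genes with a mean of at least 0.5 CPM, 3.04% had a correlation above 0.9 with the mean standardised profile of the 3 genes. Above 0.95 were 100 genes (0.752%), and 190 (1.43%) with S100a9 alone and 120 (0.903%) with Csf3r alone. High values were thus not particular to the 3 genes. The 10 most alike were Rdh10 (0.995), Zfp14, Spsb2, Eif2ak4, Igfn1, Itga5, Arhgef25, Ifnar1, Zfp513 and Snhg18 (0.984), none of them in the neutrophil lists. Igfn1, which encodes a protein of the muscle Z-disc, had 2477, 2782 and 2522 counts in the glycerol mice, against 3104, 5114 and 10257 under melatonin, the steepest course of the 10. Most like Lcn2 alone were Plaur (0.996), the urokinase receptor gene, Amigo3 and Acbd4. Plaur had 185, 244 and 182 counts in the glycerol mice, against 217, 314 and 585 under melatonin. Most like S100a9 alone were Slc4a3, Tubb5 and Marcksl1 (0.997 to 0.996), and most like Csf3r alone were Arhgef25, Ocel1 and Tubb5 (0.993 to 0.992).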

How the data were processed

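A single table holds the raw counts of reads per Ensembl gene that the authors deposited for 6 libraries. Named per the submitters' processing notes are HISAT2 2.0 and StringTie 1.3.3b, Trimmomatic 0.36 and FastQC 0.11.2, DESeq2 1.12.4 and bedtools 2.26.0, and the build mm10. How reads were counted, on which annotation and with which strand setting is not stated in the sources. The smallest total of a row is 28 counts. Columns were matched to samples by treatment code and replicate number, and per the labels the samples of a group are separate mice. Symbols matched 16260 of 16289 rows. Positions and lengths came from GENCODE M21 (GRCm38, the assembly of mm10) and promoters from RefSeq (GRCm38.p6), where all 3 genes matched.

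Groups were compared in edgeR 4.0.16 under R 4.3.3 by quasi-likelihood, after filterByExpr and TMM scaling, on all 6 libraries and 16259 genes, with Benjamini-Hochberg adjustment and a threshold of 0.05. The standard error is the log2 fold change divided by the square root of F. Log2 CPM for correlations used a prior count of 2. The scripts were tested on simulated counts. DESeq2 1.42.0, limma 3.58.1 (voom), other scalings and filters, a replicate block and leaving out each library were alternatives. Beyond the 3 genes, those named in each list were the genes passing, up to 5 with an unadjusted p under 0.05, the 3 highest per kilobase and symbols not analysed. Others named from the lists, such as Mmp8, Cxcl1, Il1b, Ager and Spi1, were chosen for their role with their values in view. The genes and lists were chosen with earlier results of these data known.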

Additional observations from a re-analysis of the deposited data

How the results depend on the processing

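Every log2 fold change of S100a9, Csf3r and Lcn2 stayed above 0 in all settings run, and S100a9 crossed the threshold under DESeq2 alone (5.96, DESeq2 adjusted p = 0.00736), where 1 of the 3 genes passed. In the other settings 0 passed, and leaving out each library gave 0 throughout. Over the alternatives, adjusted p ran from 0.00736 to 0.42 for S100a9, 0.105 to 0.488 for Csf3r and 0.179 to 0.928 for Lcn2. Leaving out a library moved S100a9 between 4.29 and 6.85, Csf3r between 0.51 and 1.05 and Lcn2 between 0.09 and 1.72. Lcn2 was at 0.87 by limma-voom and 0.46 with sample weights. The filter of 1 CPM in at least 3 libraries left S100a9 and Lcn2 untested. Of all genes tested, 12 passed by edgeR, 744 by DESeq2, 199 by limma-voom with sample weights, 31 by the robust fit, and 6 to 27 with a library left out; the cause was not tested. Library size alone, without TMM factors, raised the median of all genes by 0.21. The replicate block gave S100a9 5.71, Csf3r 0.76 and Lcn2 0.89, with 0 genes passing (2991 at an unadjusted p under 0.05). Same-numbered libraries deviated from their group means with correlations of -0.0101, -0.0107 and -0.0492, and other-numbered ones with -0.13 to 0.131. Such values cannot show whether replicate numbers paired animals. Without glycerol+melatonin replicate 3 the 10 genes most like the 3 had correlations from 0.849 to 0.996. Depth limits S100a9 and Ngp in glycerol, with 0 to 8 counts per library.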

Other observations

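Among markers of mast cells, basophils and eosinophils, not described above, most mast cell genes were below 0 and the eosinophil genes lay on both sides. Of 16 listed markers of mast cells, basophils and eosinophils 7 were tested, with 2 above and 5 below 0, a median of -0.54 and 0 passing by edgeR. At an unadjusted p under 0.05 there were 2 lower, both genes of mast cell granule proteases, beside 9.39% of all genes. Without glycerol+melatonin replicate 3 there was 1 lower and the median was -0.35, and library size alone gave 1 higher and 1 lower, also with a median of -0.35. Cpa3, the mast cell carboxypeptidase gene, had 104, 226 and 121 counts in the glycerol mice, against 80, 58 and 34 under melatonin, with separate groups (-1.57 ± 0.41, edgeR adjusted p = 0.143), and DESeq2 called it (-1.59 ± 0.42, DESeq2 adjusted p = 0.00809). The chymase gene Mcpt4 was at -0.99 ± 0.40 (edgeR adjusted p = 0.231), and the mast cell genes Tpsb2 and Cma1 at -0.54 ± 0.33 and -0.53 ± 0.35. Kit, the mast cell growth factor receptor gene, which other cells also express, was at 0.44 ± 0.27. In glycerol+melatonin replicate 3, the mouse with the most S100a9, Cpa3 and Mcpt4 were lowest of the 6 libraries, while Kit was highest (29.9 CPM against 12.5 to 17.8 CPM). The sum of the 7 genes was also highest there, at 41.1 CPM against 30.3 to 40.8 CPM. Prg2, an eosinophil granule gene, had 2, 16 and 31 counts in the glycerol mice, against 12, 27 and 81 under melatonin and was highest in that mouse (1.08 ± 0.86, edgeR adjusted p = 0.504). Ear2, also listed for eosinophils, was at -0.13 ± 0.32 (edgeR adjusted p = 0.847). The basophil gene Mcpt8 was not analysed here.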
